A study of Bos taurus with 12 samples.

Results

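The genes described here take glucose from uptake to pyruvate, through the pentose phosphate side path, and from pyruvate into the mitochondrion or to lactate. They are 39 genes, chosen by name as members of these pathways, and all 39 were found among the 32637 gene symbols of the count table. They comprise 3 glucose transporters, 10 genes of upper glycolysis, 7 of lower glycolysis, 4 of lactate formation and transport, 6 of the pentose phosphate pathway and 9 of pyruvate entry. By the RefSeq annotation of the ARS-UCD2.0 cattle assembly, 3 of them (PGK1, PDHA1 and PDK3) lie on the X chromosome and 36 on autosomes.

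Expression was measured by RNA-seq in 11 libraries of Bos taurus expanded blastocysts made by in vitro fertilization, 6 from female and 5 from male embryos. No embryo was treated or genetically altered, and sex is the only difference the labels give between the groups. Each embryo was cut, one piece was used to determine sex by PCR, and the remaining pieces of 2 embryos of one sex were pooled into a library, so a library holds both inner cell mass and trophectoderm and is an average of 2 embryos. The embryos were collected on Day 7 or Day 8 from ovaries obtained at a slaughterhouse, with semen of bulls that changed between weeks. The labels do not say which library came from which week or day, so p-values measure the spread between these pools.

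Glycolysis splits glucose into pyruvate with a small yield of ATP, and the pentose phosphate pathway draws off glucose 6-phosphate to make NADPH and ribose 5-phosphate. Pyruvate either becomes lactate or crosses the inner mitochondrial membrane, where the pyruvate dehydrogenase complex turns it into acetyl-CoA. Pyruvate dehydrogenase kinases switch that complex off by phosphorylating its E1 alpha subunit. Embryos of cattle, like those of other mammals, take up much more glucose from compaction to the blastocyst stage than in the first cleavages.

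GAPDH, a member, also served the study as a reference gene for quantitative PCR, together with H2AZF. Its primer pair is shown because the use of a reference gene rests on its level being alike in the samples compared, which the counts below describe.
GAPDH forward: ggcaaggtcatccctgag
GAPDH reverse: gcaggtcagatccacaacag

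Levels are given as CPM, counts relative to library size after TMM scaling in edgeR, and they compare a gene between libraries but not one gene with another, since gene length was not taken into account. Counted reads ranged from 6664112 to 16162985 in the female and from 9942952 to 21392764 in the male libraries. Male replicate 5 had both the most reads and the fewest genes with at least 1 count, 14937, against 16985 to 18550 in females and up to 17436 in males. Summed over 10 trophectoderm markers its level was 36145 CPM, 20142.5 CPM of it KRT8, against 7879 to 23154 CPM in females. KRT8, KRT18, CDX2, DAB2 and LGALS3 were above every female, and GATA2, GATA3, TFAP2A, TFAP2C and PTGS2 lay within the female range. Summed over 7 hypoblast markers, male replicate 5 was the lowest, 208 CPM against 228 to 621 CPM in females. PDGFRA, at 17.9 CPM, and COL4A1, at 6.54 CPM, were below every female, HNF4A and GATA4 above, and the others within. The sum of this library over 6 inner cell mass markers, 888 CPM, lay within the 560 to 980 CPM of females. Among these markers its POU5F1 and LIN28A were the highest and its SPIC and KLF17 the lowest of all libraries, with NANOG and SOX2 in between. Each embryonic marker list thus had reads in all libraries, though FOXA2 and SOX17 stayed at 1.24 CPM or less. The 7 cumulus cell genes summed to 5.38 to 32.7 CPM. None of these marker genes was called between the sexes by edgeR, and an unadjusted p under 0.05 was reached by 1 trophectoderm and 1 cumulus gene. Fewer cells of a type and less RNA per cell cannot be told apart in such pools.

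A difference between the sexes was called by the study's thresholds, an FDR below 0.1 with a fold change above 1.5. The study applied them to DESeq2 with collection week, and here they were applied to edgeR with the library number. Of the 39 members, 36 passed the filter on low counts, and 1 of these was called, the X-linked kinase gene PDK3, which was higher in females. By the same rule 1.91% of all 12802 tested genes were called, 0.414% as higher in males and 1.5% as higher in females, and of autosomal genes 0.707% in either direction. Without the fold criterion, PGAM1 passed as well, as higher in males, which makes 2 of 36 against 2.07% of all genes. An unadjusted p under 0.05 was reached by 9 members, against 13.2% of all genes. Of these, ALDOA, PGAM1, ENO3, PGLS and TKT were higher in males, 5 of 36 against 6.26% of all genes, and ALDOC, LDHA, PDHA1 and PDK3 in females, 4 of 36 against 6.95%.

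The number of members called varied with the fit, and so did the number of all genes called. With no block for the library number 3 members were called (ENO3, PGAM1 and PDK3), against 2.55% of all genes. DESeq2 called 3 with the block (ENO3, TKT and PDK3) and 4 without it (these and PGAM1), against 4.77% and 5.14% of all genes. With every gene of at least 1 count in the fit, 6 of 39 members were called (TPI1, ENO1, ENO3, TKT, LDHA and PDK3). The share there was 3.11% of 23857 genes, a set that includes those below the filter on low counts. With TMM factors from autosomal genes 1 member was called, against 2.04%. Without male replicate 4 there were 2 (LDHA and PDK3), against 1.71%, and without male replicate 5 there were 3, against 2.81%.

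Small differences leaned to one side. The fitted difference was above 0, higher in males, for 28 of the 36 members, or 77.8%, against 50.5% of all tested genes. The median log2 fold change of the members was 0.21 and that of all tested genes was 0.01. Over the 33 tested autosomal members the median was 0.26, with 27 above 0, and over all autosomal genes it was 0.02. Over the fits without 1 library the count above 0 ran from 23 to 29 and the median from 0.16 to 0.25. The count was 23 without male replicate 5, with a median of 0.19, and 23 without male replicate 3, with a median of 0.25. The wider pathway list described below did not share this lean, with 16 of 40 values above 0 and a median of -0.16. By role, all 6 tested genes of lower glycolysis and all 6 of the pentose phosphate pathway had values above 0, as did 8 of 9 in upper glycolysis, 6 of 9 in pyruvate entry, 1 of 3 glucose transporters and 1 of 3 lactate genes. With TMM factors from autosomal genes alone the value of TALDO1 in the pentose phosphate pathway and of HK2 in upper glycolysis turned to -0.01. For 27 of the 36 the 95% confidence interval of the log2 fold change included 0, and for 26 it lay wholly between -1 and 1.

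**Figure D1:**
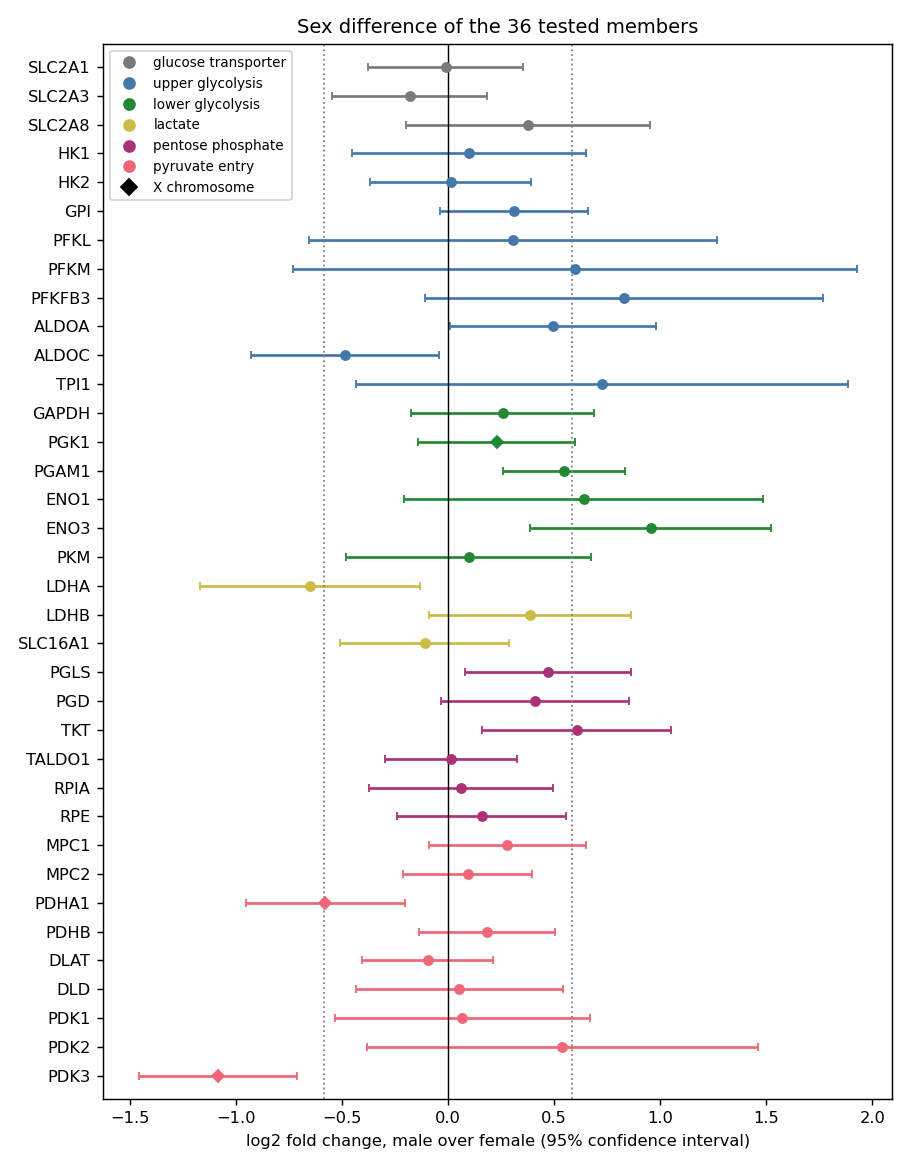
Log2 fold change of male over female libraries for the 36 tested members, with 95% confidence intervals, coloured by role, with diamonds for the 3 X-linked genes and dotted lines at a 1.5-fold difference. PDK3 lies at -1.08 with its interval far from 0, whereas the intervals of 27 members cross 0.

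PDK3, one of the kinases that switch off the pyruvate dehydrogenase complex, was the member that differed most clearly by sex. It lies at 118815748 to 118898248 on the X chromosome. In females its level ran from 49.3 to 71.4 CPM with a median of 54.8, and in males it was 38.5, 26.4, 26.2, 26.0 and 23.6 CPM in replicates 1 to 5. Every female library was above every male library, as in 1.88% of all tested genes. The mean was 58.3 ± 8.39 CPM in females (SD, n = 6) and 28.1 ± 5.89 CPM in males (SD, n = 5), a log2 fold change of -1.08 (SE 0.17, 95% confidence interval -1.46 to -0.71), or 2.12-fold higher in females (edgeR quasi-likelihood test, Benjamini-Hochberg adjusted p = 0.0103). The call held in all 7 other settings of the fit and in each of the 11 fits without 1 library, where the log2 fold change ranged from -1.19 to -1.02. Among X-linked genes a call of this kind was common, since 27.7% of the 476 tested were called as higher in females, and in 29.2% every female was above every male.

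The 3 X-linked members did not share one pattern, and 2 of them, PDK3 and PDHA1, were higher in females at an unadjusted p under 0.05, where 62.6% of X-linked genes were. PDHA1, the E1 alpha subunit on which those kinases act, lies at 123763235 to 123786122. Its level ran from 121 to 303 CPM in females with a median of 221, and was 134, 127, 119, 162 and 201 CPM in male replicates 1 to 5. The groups overlapped, and female replicate 3, at 121 CPM, was at the level of the lowest males. The log2 fold change was -0.58 (SE 0.17, 95% confidence interval -0.95 to -0.20) with means of 213 ± 63.7 CPM in females (SD, n = 6) and 148 ± 33.6 CPM in males (SD, n = 5), and it was not called (edgeR, adjusted p = 0.160). It was called in the fit without male replicate 5, at -0.65 (edgeR, adjusted p = 0.0899), and in no other fit.

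PGK1, which makes the first ATP of the lower pathway and lies at 74244892 to 74267571 on the X chromosome, had its higher mean in males. Its level ran from 292 to 484 CPM in females with a median of 351, and was 340, 512, 341, 462 and 480 CPM in males. The groups overlapped over most of their range. With means of 360 ± 66.2 CPM in females (SD, n = 6) and 427 ± 80.9 CPM in males (SD, n = 5), the log2 fold change of PGK1 was 0.23 (SE 0.17, 95% confidence interval -0.14 to 0.60; edgeR, adjusted p = 0.616). Over all tested X-linked genes the median log2 fold change was -0.85, which lies outside that interval, and 5.67% of them had a value above 0.

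**Figure D2:**
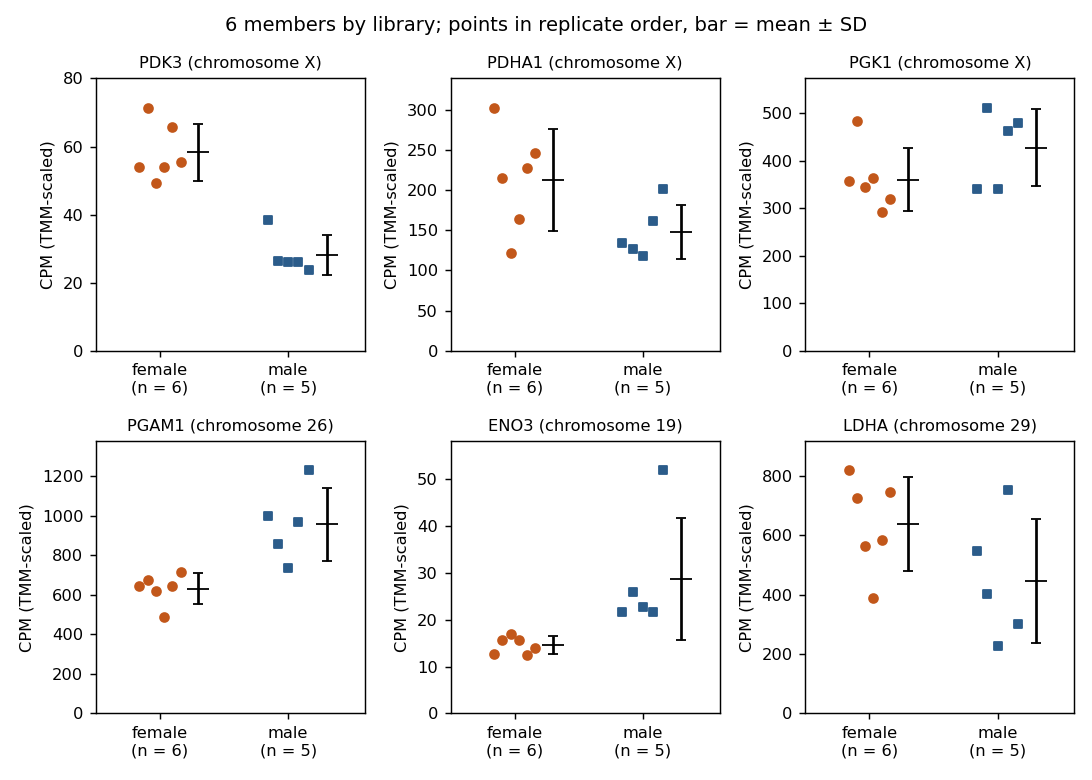
CPM of 6 members in each of the 6 female and 5 male libraries, with the mean and SD beside the points, on axes that start at 0. PDK3 is separated with females above, PGAM1 and ENO3 are separated with males above, and PDHA1, PGK1 and LDHA overlap.

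None of the other members of pyruvate entry was called. MPC1 and MPC2, which form the mitochondrial pyruvate carrier, had log2 fold changes of 0.28 and 0.09. The partners of PDHA1 in the complex, PDHB, DLAT and DLD, had 0.18, -0.10 and 0.05. Of the other kinases, PDK1 had 0.07 and PDK2 0.54, the latter at no more than 6.69 CPM in any library. Adjusted p-values of these 7 genes were 0.521 or more (edgeR). Male replicate 5 stood apart in 2 of them, with DLD at 465 CPM where the other libraries had 834 to 1484 CPM, and PDK1 at 96.9 CPM where the other males had 37.1 to 52.9 CPM.

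At the entrance of the pathway the libraries of both sexes covered much the same range. SLC2A1, the GLUT1 glucose transporter, had 106 to 245 CPM in females with a median of 148, and 189, 211, 124, 119 and 180 CPM in males. SLC2A3, which encodes GLUT3, had 497 to 1014 CPM in females with a median of 697, and 723, 768, 716, 497 and 584 CPM in males. In both genes the male libraries lay inside the range of the females, apart from male replicate 4 for SLC2A3, which was level with the lowest female. The log2 fold changes were -0.01 (SE 0.17, 95% confidence interval -0.38 to 0.35) for SLC2A1 and -0.18 (SE 0.17) for SLC2A3, with adjusted p-values of 0.988 and 0.699 (edgeR). For SLC2A8, a transporter found on internal membranes, the value was 0.38 (edgeR, adjusted p = 0.591).

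HK1 and HK2, the hexokinases that trap glucose in the cell, were not called either. HK1 had 16.4 to 37.1 CPM in females with a median of 28.6, and 36.7, 26.1, 20.1, 30.0 and 33.1 CPM in males. HK2 had 60.1 to 147 CPM in females with a median of 85.6, and 92.0, 101, 94.4, 79.9 and 84.2 CPM in males. Males were packed closely for HK2, with an SD of 8.25 CPM (n = 5) against 29.8 CPM (n = 6) in females, where replicate 1 was the highest. Log2 fold changes were 0.10 (SE 0.25) for HK1 and 0.01 (SE 0.17) for HK2 (edgeR, adjusted p = 0.912 and 0.988).

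The steps from glucose 6-phosphate to the trioses held 1 aldolase gene on each side. ALDOA, the main glycolytic aldolase, had 519 to 1070 CPM in females with a median of 670, and 912, 917, 548, 1369 and 2299 CPM in males. Male replicates 4 and 5 were above every female and the other 3 males were not. ALDOC, the aldolase best known from brain, had 23.5 to 34.5 CPM in females with a median of 26.8, and 14.6, 15.1, 19.4, 29.8 and 28.7 CPM in males, so that male replicates 1 to 3 were below every female. Log2 fold changes were 0.49 (SE 0.22) for ALDOA and -0.49 (SE 0.20) for ALDOC, and neither was called (edgeR, adjusted p = 0.366 and 0.328).

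Of the 5 tested genes of upper glycolysis not yet named, GPI, the isomerase, had a log2 fold change of 0.31. PFKL and PFKM, subunits of phosphofructokinase, had 0.31 and 0.60, and PFKFB3, which makes its activator fructose 2,6-bisphosphate, had 0.83. TPI1, which interconverts the trioses, had 0.73. Adjusted p-values were 0.443 or more (edgeR). The value of PFKL rested on male replicate 5, at 96.7 CPM against 13.1 to 22.5 CPM in the other males, and without that library its log2 fold change was -0.36.

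Lower glycolysis held the 2 members in which every male was above every female, a separation seen in 1.43% of all tested genes. PGAM1, the phosphoglycerate mutase, lies at 18649174 to 18655669 on chromosome 26. Its level ran from 487 to 717 CPM in females with a median of 645, and was 999, 856, 734, 970 and 1230 CPM in males. The lowest male, replicate 3, was just above the highest female. Means were 631 ± 78.4 CPM in females (SD, n = 6) and 958 ± 184 CPM in males (SD, n = 5), a log2 fold change of 0.55 (SE 0.13, 95% confidence interval 0.26 to 0.83). The difference passed the FDR (edgeR, adjusted p = 0.0785), while its fold, 1.46, stayed below 1.5. The FDR was no longer passed in 8 of the 11 fits without 1 library, where the adjusted p of PGAM1 lay between 0.139 and 0.220 (edgeR). It was passed without female replicate 3, male replicate 4 or male replicate 5. In all 7 other settings of the fit the FDR was passed (edgeR or DESeq2, adjusted p = 0.00577 to 0.0915), and in 2 of them PGAM1 was called. Within the library numbers 1, 2 and 3, the difference of mean log2 CPM was 0.48, 0.42 and 0.69.

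ENO3, the enolase best known from muscle, lies at 26439577 to 26445332 on chromosome 19 and was at a low level. It had 12.5 to 17.0 CPM in females with a median of 14.8, and 21.7, 25.9, 22.7, 21.6 and 51.9 CPM in males. The males other than replicate 5 lay close together, with a mean of 23.0 ± 2.01 CPM (SD, n = 4), and with replicate 5 the mean was 28.7 ± 13.1 CPM (SD, n = 5), against 14.6 ± 1.82 CPM in females (SD, n = 6). The log2 fold change was 0.95 (SE 0.26, 95% confidence interval 0.39 to 1.52) and was not called (edgeR, adjusted p = 0.123). In the fit without male replicate 5 it was called, with a smaller difference, 0.66, and a smaller p (edgeR, adjusted p = 0.0830). It was also called in 4 of the 7 other settings of the fit, and over the 7 the adjusted p-values ranged from 0.00801 to 0.137 (edgeR or DESeq2). The study, with DESeq2 and collection week, names ENO3 among its genes higher in males.

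The other genes of lower glycolysis were broadly spread. ENO1, the main enolase, had a log2 fold change of 0.64 (SE 0.39) and PKM, the pyruvate kinase, one of 0.10 (edgeR, adjusted p = 0.524 and 0.916). PKM had 1129 CPM in male replicate 5 and 359 to 463 CPM in the other males, and without that library its log2 fold change was -0.20. GAPDH had 1035 to 1911 CPM in females with a median of 1414, and 1475, 2030, 1170, 2242 and 2562 CPM in males. Its highest and lowest libraries differed by 2.47-fold. Means of GAPDH were 1478 ± 365 CPM in females (SD, n = 6) and 1896 ± 567 CPM in males (SD, n = 5), with a log2 fold change of 0.26 (SE 0.20, 95% confidence interval -0.18 to 0.69; edgeR, adjusted p = 0.634), an interval that leaves room for a male level up to 1.61-fold that of females.

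The lactate dehydrogenase genes had fitted values of opposite sign, neither of them called. LDHA, at 26290889 to 26302946 on chromosome 29, encodes the subunit known to favour making lactate. It had 387 to 818 CPM in females with a median of 654, and 547, 403, 226, 753 and 301 CPM in males. Male replicates 3 and 5 were below every female, and male replicate 4 was near the top of the females. Means were 637 ± 157 CPM (SD, n = 6) and 446 ± 210 CPM (SD, n = 5), a log2 fold change of -0.65 (SE 0.24, 95% confidence interval -1.17 to -0.13; edgeR, adjusted p = 0.263). Without male replicate 4 it was -0.94 and was called (edgeR, adjusted p = 0.0364).

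LDHB, at 88544523 to 88562770 on chromosome 5, encodes the subunit known to favour using lactate. It had 432 to 875 CPM in females with a median of 638, and 760, 1139, 899, 808 and 447 CPM in males, where all but replicate 5 were above the female median. The log2 fold change was 0.39 (SE 0.22; edgeR, adjusted p = 0.489). SLC16A1, which encodes the lactate and pyruvate transporter MCT1, had -0.11 (edgeR, adjusted p = 0.851).

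All 6 pentose phosphate genes had values above 0 and none was called. TKT, the transketolase that links the side path back to glycolysis, had 154 to 234 CPM in females with a median of 203, and 303, 233, 261, 247 and 462 CPM in males. Only male replicate 2 lay inside the female range, at its upper end. The log2 fold change was 0.61 (SE 0.20; edgeR, adjusted p = 0.221). Without male replicate 5 it was 0.40 (edgeR, adjusted p = 0.208), and TKT was called in 3 of the 7 other settings of the fit.

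PGLS, which hydrolyses 6-phosphogluconolactone, had 42.4 to 68.8 CPM in females with a median of 58.3, and 73.9, 84.3, 56.3, 84.0 and 109 CPM in males, so that all males but replicate 3 were above the females. Its log2 fold change was 0.47 (SE 0.18; edgeR, adjusted p = 0.282). PGD, which yields NADPH in the next step, had 0.41 (edgeR, adjusted p = 0.423). TALDO1, RPIA and RPE, of the part that recycles and interconverts the sugars, had 0.01, 0.06 and 0.16. Within the pathway the values thus ran from 0.01 for TALDO1 to 0.61 for TKT.

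Comparing paired isozymes or partner subunits inside a library removes the scaling between libraries. The log2 ratio of counts was compared between the sexes for 12 pairs by a two-sided exact permutation test, with Benjamini-Hochberg adjustment over the 12 and a threshold of 0.1. The smallest p this test can give is 0.00216. ALDOA over ALDOC and PDK1 over PDK3 passed, both higher in males. The 8 pairs other than these and those of LDHA and PDHA1 had adjusted p-values of 0.437 or more.

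The ratio of ALDOA to ALDOC was 62.1, 60.5, 28.2, 45.9 and 79.9 in male replicates 1 to 5 and ran from 19.2 to 37.1 in females. All males but replicate 3 were above all females. On the log2 scale the means were 5.71 ± 0.57 (SD, n = 5) in males and 4.66 ± 0.37 (SD, n = 6) in females, a difference of 1.05 (exact permutation test, p = 0.0108, adjusted p = 0.0909).

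The ratio of PDK1 to PDK3 was 0.963, 1.42, 1.66, 2.04 and 4.10 in male replicates 1 to 5 and ran from 0.492 to 1.29 in females. Male replicate 1 lay below the females of replicates 1 and 6, and the other males were above all females. Log2 means were 0.85 ± 0.77 (SD, n = 5) and -0.37 ± 0.56 (SD, n = 6), a difference of 1.21 (exact permutation test, p = 0.0152, adjusted p = 0.0909). The separate fits gave log2 fold changes of 0.07 for PDK1 and -1.08 for PDK3. Neither ratio passed the threshold without female replicate 2, 3 or 5 or without male replicate 1, 2 or 5, where the adjusted p lay between 0.114 and 0.190.

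LDHA over LDHB was 0.720, 0.354, 0.251, 0.932 and 0.673 in male replicates 1 to 5 and ran from 0.584 to 1.89 in females. In all 5 males LDHA had fewer counts than LDHB, as it did in female replicates 2, 3 and 4. The difference of log2 ratios was -0.97 and did not pass (exact permutation test, p = 0.0433, adjusted p = 0.130). PDHA1 over PDHB was 0.246 to 0.542 in males and 0.376 to 0.903 in females, a difference of -0.69 (exact permutation test, p = 0.0346, adjusted p = 0.130). Permuting only within library numbers, all 4 pairs passed (exact permutation test, adjusted p = 0.0556 for each), with a smallest possible p of 0.00926.

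**Figure D3:**
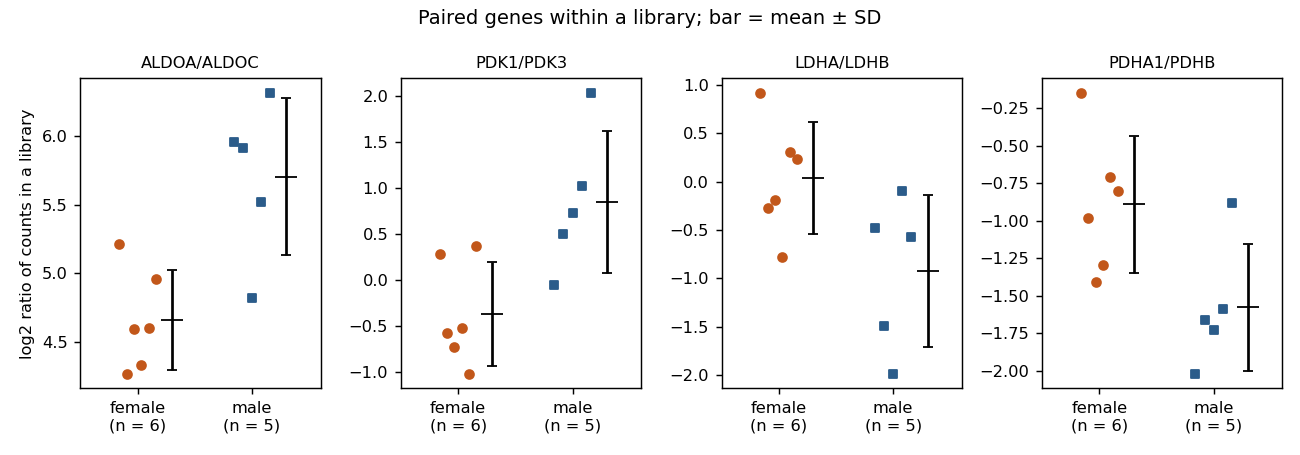
Log2 ratio of counts of 4 gene pairs in each of the 6 female and 5 male libraries, with the mean and SD beside the points. ALDOA over ALDOC and PDK1 over PDK3 are 1.05 and 1.21 higher in males on the log2 scale, LDHA over LDHB and PDHA1 over PDHB are lower by 0.97 and 0.69 without passing the test, and in all 4 panels the sexes overlap.

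The libraries of one sex also differed among themselves, as in TPI1 and ENO1. The widest span of a tested member, 10.3-fold, was that of PFKM at 0.381 to 3.91 CPM. TPI1 spanned 7.42-fold over the 11 libraries, with 81.0, 102, 35.5, 158, 50.3 and 91.5 CPM in females and 33.7, 250, 68.4, 192 and 215 CPM in males. ENO1 spanned 5.06-fold, with 988, 1189, 505, 978, 529 and 1332 CPM in females and 573, 2508, 705, 1762 and 2560 CPM in males. The same 4 libraries, female replicates 3 and 5 and male replicates 1 and 3, were the lowest in both genes. In ENO1 the other 3 males were above every female.

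Over the 11 libraries the log2 CPM of TPI1 and ENO1 had a Pearson r of 0.93 (permutation test, p = 0.00017, adjusted p = 0.0260 over 630 pairs of members) and a Spearman rho of 0.90 (permutation test, p = 0.00051, adjusted p = 0.269). Pearson's r was 0.90 without the 2 libraries farthest from the median of TPI1, 0.92 with the mean of each sex removed and 0.92 without male replicate 5. Of the 630 pairs, 9 had an adjusted p under 0.05 by Pearson's r, 8 of them positive, and none by Spearman's rho, so that TPI1 with ENO1 is a pair picked from many.

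**Figure D4:**
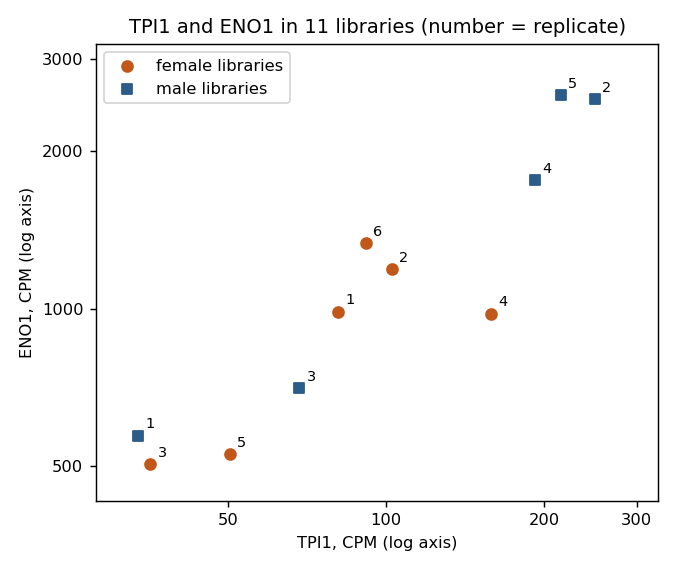
ENO1 against TPI1 in CPM on log axes, 1 point for each of the 11 libraries, circles for female and squares for male, numbered by replicate. Female replicates 3 and 5 and male replicates 1 and 3 lie at the lower left, and male replicates 2, 4 and 5 at the upper right.

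Male replicate 5 was often an extreme library over all genes, and among the members it was more often the highest than the lowest. It was the highest library of the 11 in 15 of the 36 tested members, where it was the highest in 24.9% of all tested genes, and the lowest in 3, against 26.8% of all. In 6 of the 36 members (PFKL, ALDOA, ENO3, PKM, TKT and PDK1) it was more than 1.5 times every other male, a share near the 15.8% of all genes. Its high trophectoderm and low hypoblast marker sums are given above, and their part in these values was not tested. Without it the 5 members HK2, PFKL, PKM, TALDO1 and PDK1 moved from above to below 0, and 3 members were called, ENO3 as higher in males and PDHA1 and PDK3 as higher in females.

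**Figure D5:**
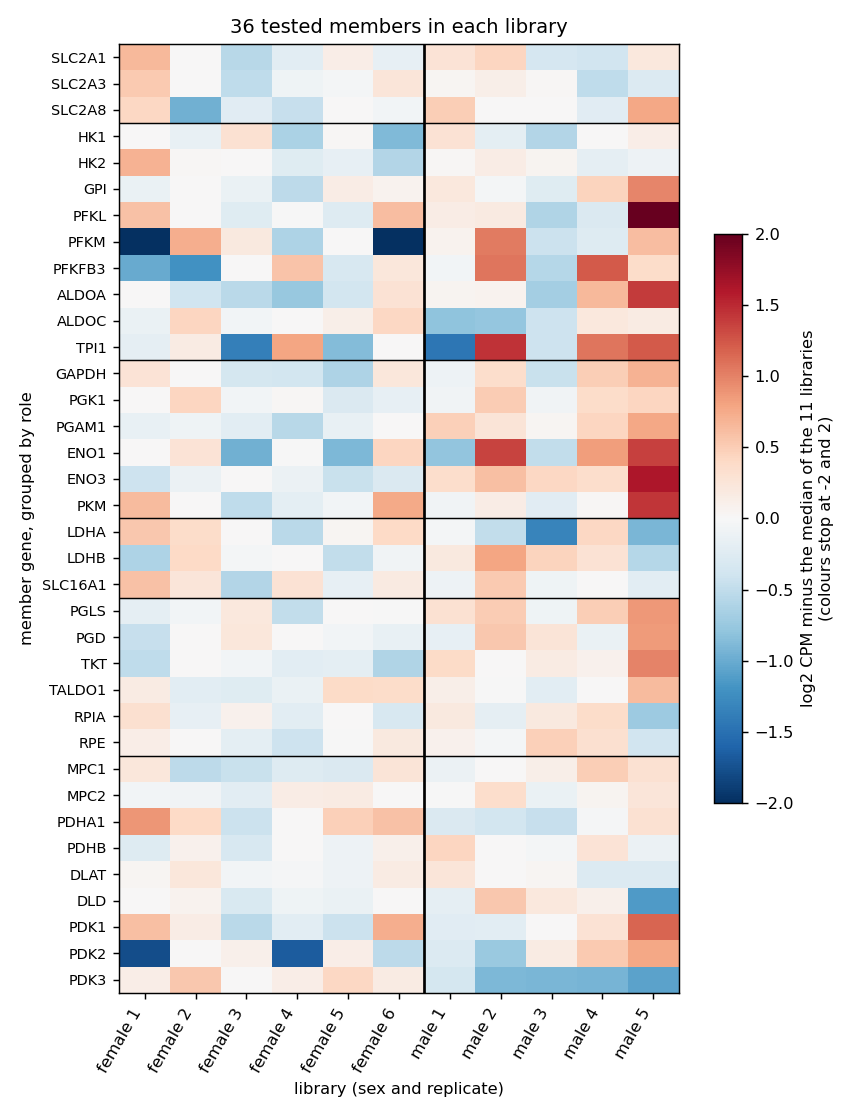
Log2 CPM of the 36 tested members in each library, relative to the gene's median over the 11 libraries, in rows grouped by role with a line between the female and male columns. Male replicate 5 is the highest library in 15 rows, and PDK3 in the last row is the member in which all females are above all males.

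For 3 isozymes or transporters almost no RNA was counted. PFKP, the platelet-type phosphofructokinase, had 0 to 11 counts in a library, ENO2, the neuronal enolase, 0 to 9 counts, and SLC16A3, which encodes the lactate exporter MCT4, 0 to 8 counts. At such counts a difference between the sexes was not detectable. Of the 12 ratios, 4 use one of these genes and rest on few counts.

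The wider pathway, listed by function but with earlier results of these data known, comprised 52 further genes, of which 1 was not analysed here. Of the other 51, 40 were tested and none was called by edgeR at the FDR and fold thresholds. An unadjusted p under 0.05 was reached by 8 of the 40, 4 in each direction, against 13.2% of all genes. DESeq2 with the library number called 3 of the 40, PCK2 and the X-linked PRPS1 and PRPS2, against 4.77% of all genes. Among X-linked genes calls were more common, since edgeR called 27.7% of those tested as higher in females. Here 16 of 40 values were above 0 and the median log2 fold change was -0.16. PRPS1 and PRPS2 make phosphoribosyl pyrophosphate from the ribose 5-phosphate of the pentose phosphate pathway. PRPS1 had 182 ± 29.5 CPM in males (SD, n = 5) and 273 ± 41.7 CPM in females (SD, n = 6). Every female was above every male, as in 29.2% of tested X-linked genes. The log2 fold change of PRPS1 was -0.60 (edgeR, adjusted p = 0.114). PRPS2 had -0.81 (edgeR, adjusted p = 0.150).

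Of further X-linked genes of the list, TKTL1, a relative of transketolase, had a log2 fold change of 0.39 and MPC1L, a relative of MPC1, -1.24 (edgeR, adjusted p = 0.907 and 0.571). On autosomes, VDAC2, a pore of the outer mitochondrial membrane, had 1259 ± 144 CPM in males (SD, n = 5) and 871 ± 110 CPM in females (SD, n = 6). Every male was above every female, as in 1.43% of all tested genes. The log2 fold change of VDAC2 was 0.52 (edgeR, adjusted p = 0.111). PCK2, the mitochondrial form of phosphoenolpyruvate carboxykinase, had 1.27, the fructose transporter gene SLC2A5 0.66, and PDHX, which holds part of the pyruvate dehydrogenase complex together, 0.53 (edgeR, adjusted p = 0.236, 0.349 and 0.308). PGM2, a phosphopentomutase, and PDP1, the phosphatase that switches the complex back on, had -0.61 and -0.56 (edgeR, adjusted p = 0.356 and 0.288).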

How the data were processed

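RNA-seq was analysed in all 11 libraries of expanded blastocysts (6 female, 5 male). A further Iso-seq sample of pooled embryos of an earlier stage was not used here. The authors amplified cDNA with the SMART-Seq HT PLUS kit, used fastp 0.20.0 for trimming, STAR 2.7.10b for alignment and featureCounts for counting, and deposited raw whole-number counts per gene. How reads with several positions were counted, and whether strand was used, is not given in the sources used here, so genes with near-identical copies (many glycolytic genes have retrocopies) are uncertain. Symbols were matched to RefSeq (ARS-UCD2.0).

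The counts were tested in R 4.3.3 with edgeR 4.0.16, by quasi-likelihood on TMM-normalized counts, after filterByExpr by sex had kept 12802 genes. The library number (1 to 3, the first digit in the library name) was a block, in place of the collection week that the study's own design used. Adjusted p-values are Benjamini-Hochberg values over all tested genes. Log2 CPM had a prior count of 2. The common biological coefficient of variation was 0.403. Permutation tests were written with numpy 2.4.6, with ranks from scipy 1.17.1 and, for correlations, 100000 permutations. Scripts were tested on simulated data. Reads carried no molecular identifiers, so a count is of amplified reads and not of molecules.

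The members and lists were chosen with earlier results of these data known. A gene of the wider pathway list is not reported here. All members are named; values in each library are given for those called, X-linked, separated between the sexes, under an unadjusted p of 0.05, or first or last in the pathway. TPI1, ENO1 and GAPDH, and values of male replicate 5, were chosen after the values were seen. Alternatives were DESeq2 1.42.0, fits without the block, other factors and filters, an FDR of 0.05, and fits without each library.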

Additional observations from a re-analysis of the deposited data

Results flagged for a closer look

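The library farthest from its group was compared with its nearest neighbour by Dixon's criterion in 96 groups, each sex for every tested member and ratio. In 8 groups it lay beyond the 95% critical value, and chance gives about 1 in 20 groups. Male replicate 5 accounted for 4 of the 8. It had 96.7 CPM of PFKL where the next male had 22.5 CPM, 51.9 CPM of ENO3 where the next had 25.9 CPM, 1129 CPM of PKM where the next had 463 CPM, and 96.9 CPM of PDK1 where the next had 52.9 CPM.

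The other 4 were in female replicate 1 and male replicates 1 and 2. Female replicate 1 had 147 CPM of HK2, the hexokinase, and the next female had 91.8 CPM. Male replicate 2 had 861 CPM of SLC16A1, the lactate and pyruvate transporter, and the next male had 597 CPM. Male replicate 1 had 38.5 CPM of PDK3 and the next male had 26.4 CPM, with every female above both. The log2 ratio of ENO1 to ENO2 was 9.51 in male replicate 1 and at least 14.4 in the other males, and it rests on 0 to 9 counts of ENO2.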

How the results depend on the processing

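PDK3 was called in every fit. Calls among the members, 1 in the fit reported, numbered 3 with no replicate block (ENO3, PGAM1 and PDK3), 3 with DESeq2 and the replicate block, 4 with DESeq2 and no replicate block, 6 with every gene of at least 1 count, and 1 to 3 without 1 library (2 without male replicate 4, 3 without male replicate 5). Calls among the further pathway genes, 0 as reported, were 1, 3, 1 and 5 under the same 4 settings, 1 with autosomal TMM factors, and 0 to 2 without 1 library (2 without female replicate 3). The ratios called, 2 as reported, were 4 under the replicate block and 0 to 4 without 1 library. Over all genes the calls numbered 245 as reported, 326 with no replicate block, and 611 and 656 with DESeq2 with and without it. They numbered 743 of 23857 genes with every gene of at least 1 count, and 125 at an FDR of 0.05. Without 1 library they ran from 95 (without male replicate 3) to 364 (without male replicate 5). Of 353 values under the other settings, 323 kept direction and side of the threshold, 24 came to pass it and 6 changed sign. These were SLC2A1 (0.051 and 0.053 with no replicate block, by edgeR and by DESeq2), HK2 (-0.013 and -0.0096 in these, -0.014 with autosomal TMM factors) and TALDO1 (-0.012 with autosomal TMM factors). Without 1 library, 40 of 649 values changed sign, in SLC2A1 (-0.098 to 0.087), HK1 (-0.082 to 0.28), HK2 (-0.089 to 0.165), PFKL (-0.36 to 0.55), PKM (-0.20 to 0.25), TALDO1 (-0.075 to 0.088), RPIA (-0.13 to 0.19), RPE (-0.062 to 0.28), DLD (-0.078 to 0.25), PDK1 (-0.14 to 0.22), TKTL1 (-0.14 to 0.95) and the ratios PFKL/PFKP (-1.31 to 0.19), PFKM/PFKP (-0.39 to 0.71) and SLC16A1/SLC16A3 (-0.17 to 0.98). The cause was not tested. Between the sexes, deviations of libraries of the same number had correlations of 0.01, 0.37 and 0.20 for numbers 1, 2 and 3. Those of different numbers had correlations of -0.33 to 0.17. The value for number 1 lay within that range, so the numbers are not shown to pair the libraries.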
